A study of Mus musculus with 6 samples.

Results

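The 10 genes described here, which cut, carry and display peptides on major histocompatibility complex (MHC) class I molecules, were followed across mouse embryonic fibroblasts (MEFs) of 3 genotypes, each with an oncogene vector or a mock transfection. The genes are the class I heavy chains H2-K1 and H2-D1, their light chain B2m, the peptide transporter subunits Tap1 and Tap2, the loading factor Tapbp, the immunoproteasome subunits Psmb8, Psmb9 and Psmb10, and the transcriptional activator Nlrc5. They were taken by gene name from the array's own annotation, which gave 13 probes for 10 of the 24054 named genes on the array. All 10 genes were well above background on at least 1 array, the filter that kept 17687 genes, and 8 of them on all 6 arrays. Psmb8 and Nlrc5 were not well above background on every array.

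The 6 cultures were Per2m/m cells and Clk/Clk cells, mutant in Clock by the series' design, and wild-type cells, in each case once with a vector expressing H-Ras and SV40T and once mock. All were MEFs of the ICR strain, grown in medium with 10% serum, and total RNA was labelled with a single dye (Cy3) and hybridised to 1 array per culture. The labels leave unsaid how Clock or Per2 is altered, whether cells of a genotype came from 1 embryo or several, or how the mock cells were treated. One source label of the transfected Per2m/m culture names Per2 and H-Ras but not SV40, while its other label names the same vector as in the other genotypes. With 1 array per group there was no replicate, so no ratio of 2 arrays has a test, and the number of arrays limits the precision.

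MHC class I molecules show short peptides from a cell's own proteins to CD8+ T cells. Proteasomes cut the proteins, and on exposure to interferon the catalytic subunits encoded by Psmb5, Psmb6 and Psmb7 are exchanged for those encoded by Psmb8, Psmb9 and Psmb10, which gives the immunoproteasome. The TAP transporter moves peptides into the endoplasmic reticulum, where tapasin (Tapbp) holds TAP beside an empty heavy chain bound to B2m. Fibroblasts carry a basal amount of this machinery, and NLRC5, IRF and STAT factors and NF-kappa B are known activators of its genes.

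By their probes, 7 of the 10 genes lie on chromosome 17, 2 on chromosome 8 (Psmb10 and Nlrc5) and 1 on chromosome 2 (B2m). The probes of Psmb9, Tap1, Psmb8 and Tap2 lie within 34.0 kb, between bases 34319174 and 34353175 of chromosome 17 (build mm9, as in the files). The following 60-base probes are printed whole in lower case, since no part of a probe is singled out. Those of Psmb9 and Psmb8 carry the largest ratios among the 10 genes, and that of H2-K1 differs from the gene's other probe. The Psmb9 probe reads the minus strand at chr17:34319174-34319233 and the Psmb8 probe the plus strand at chr17:34337771-34337830. The H2-K1 probe shown here reads the minus strand at chr17:34133984-34134043 and is set against a second H2-K1 probe at chr17:34133055-34133114, nearer the 3′ end of the transcript.
Psmb9 probe A_51_P369803: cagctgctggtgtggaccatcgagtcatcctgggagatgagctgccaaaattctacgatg
Psmb8 probe A_51_P345367: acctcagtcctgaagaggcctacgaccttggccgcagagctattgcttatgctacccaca
H2-K1 probe A_55_P2049647: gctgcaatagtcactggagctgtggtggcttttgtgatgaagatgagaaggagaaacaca

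Promoter sequence was available in RefSeq's promoter table (build GRCm38.p6) for 8 of the 10 genes, not for Tap2 and Nlrc5. It is the reference sequence and not that of the ICR cells. The 250 bases before the start are shown for 5 genes that were at least 2-fold higher in transfected Clk/Clk than in transfected wild-type cells, with motif matches in capitals. Both strands were searched for an interferon response core (GAAANNGAA), a STAT site core (TTCNNNGAA), an NF-kappa B site (GGGATTCCC) and an E-box (CACGTG), the element that CLOCK and its partner bind.
H2-K1, chr17:34000348-34000597, minus strand: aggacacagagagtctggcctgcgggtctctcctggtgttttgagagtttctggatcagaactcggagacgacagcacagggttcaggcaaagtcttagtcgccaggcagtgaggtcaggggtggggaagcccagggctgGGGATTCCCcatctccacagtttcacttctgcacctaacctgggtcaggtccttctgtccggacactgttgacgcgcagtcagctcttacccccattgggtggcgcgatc
H2-D1, chr17:35262844-35263093, plus strand: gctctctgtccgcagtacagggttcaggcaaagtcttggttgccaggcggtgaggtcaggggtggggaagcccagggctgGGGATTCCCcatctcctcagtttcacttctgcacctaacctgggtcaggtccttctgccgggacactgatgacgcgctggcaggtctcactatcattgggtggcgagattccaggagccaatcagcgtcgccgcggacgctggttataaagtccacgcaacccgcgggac
B2m, chr2:122147437-122147686, plus strand: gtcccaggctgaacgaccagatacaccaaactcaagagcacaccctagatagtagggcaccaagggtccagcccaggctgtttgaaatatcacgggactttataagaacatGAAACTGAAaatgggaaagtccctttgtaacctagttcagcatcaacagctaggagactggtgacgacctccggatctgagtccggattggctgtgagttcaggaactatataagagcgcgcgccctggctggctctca
Psmb8, chr17:34197945-34198194, plus strand: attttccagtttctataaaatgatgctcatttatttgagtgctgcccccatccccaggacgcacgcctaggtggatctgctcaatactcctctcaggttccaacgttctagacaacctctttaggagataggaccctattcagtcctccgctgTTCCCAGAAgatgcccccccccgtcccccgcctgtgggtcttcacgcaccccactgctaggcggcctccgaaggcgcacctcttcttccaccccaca
Psmb9, chr17:34187331-34187580, minus strand: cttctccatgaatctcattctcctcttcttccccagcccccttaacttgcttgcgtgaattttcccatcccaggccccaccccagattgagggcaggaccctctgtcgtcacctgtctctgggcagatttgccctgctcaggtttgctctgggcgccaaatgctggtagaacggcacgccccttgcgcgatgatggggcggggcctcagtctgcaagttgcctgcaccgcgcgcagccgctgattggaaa

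Only the first window of each gene was searched, and H2-K1 has 2. The NF-kappa B letters began at position -110 from the start of H2-K1 and at -170 from that of H2-D1. The 2 heavy chain windows shared an identical run of 47 bases that includes these letters, so the 2 matches lie in shared sequence. The NF-kappa B letters were present in 0.37% of the 27025 first windows and in 2 of the 8 windows of the class I genes. The interferon response core was in 1 of the 8, B2m, and in 8.574% of all windows. The STAT core was in 1 of the 8, Psmb8, and in 8.466% of all windows. The E-box was found in 1 of the 8, Psmb10, at position -116, and in 7.241% of all windows. None of the 4 motifs matched in the Psmb9 window, of which 275 of 300 bases are also the window of Tap1, read on the other strand. A match describes these letters only, and the windows were not tied to any binding measurement. Variants of the 4 motifs were not searched, so a window without a match is not shown to lack such an element.

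Levels are log2 of an array's signal for a probe minus log2 of that array's 75th percentile, so a difference of 1 is a 2-fold difference, and levels of different probes are not compared. A gene was counted as higher or lower between 2 arrays at 2-fold or more if the brighter of the pair was well above background. Where the dimmer array was not well above background, the fold is a lower bound, written "at least", against the lowest level well above background on that array or the probe's own level if higher. The arrays had 85 to 125 outlier spots of 59305 and no saturated spot. Repeated spots of a probe differed by a median SD of 0.05 to 0.06 (log2) per array. Of the 59305 spots, 49.3% were well above background on the transfected Per2m/m array and 53.5% to 57.2% on the others. That array also stood apart in its correlation with the others over all genes, with a median r of 0.856, against medians of 0.931 to 0.946 for the other 5 arrays. Per2 had a level of -2.82 in transfected and -0.97 in mock Per2m/m cells, against -3.91 to -2.38 on the other 4 arrays, and Clock of -0.05 in transfected and -0.30 in mock Clk/Clk cells, against 0.35 to 0.79 on the other 4. Since the altered part of either gene is not known here, these probes do not check the labels, and neither does the mouse Hras probe for the vector, with levels of 4.01 in transfected and 4.17 in mock wild-type cells. All arrays shared 1 slide and 1 scan. Both Per2m/m arrays lay in slide row 2 and the others in row 1, so Per2m/m and slide row cannot be told apart against wild type, while each response and each Clk/Clk difference lies within a row.

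The broadest difference was between genotypes. In Clk/Clk cells, 9 of the 10 genes were at least 2-fold higher than in wild-type cells after transfection and 6 of 10 in mock cells, with 0 lower in either state. Over all 17687 genes, 14.3% were higher and 9.03% lower in transfected Clk/Clk cells, and 10.8% were higher and 8.59% lower in mock Clk/Clk cells. The median log2 ratio of the 10 genes was 2.37 in transfected cells and 1.32 in mock cells, against -0.09 and -0.04 over all genes. In Per2m/m cells, 4 genes were higher and 1 was lower than in wild-type cells after transfection, where 14.7% of all genes were higher and 12.8% lower. In mock cells none of the 10 was counted as 2-fold higher or lower in Per2m/m than in wild type. Of all genes 4.3% were higher and 3.04% lower there. Nlrc5 was not well above background in mock Per2m/m cells and was at least 1.52-fold lower. That bound leaves a 2-fold difference in Nlrc5 undecided. These genotype comparisons share the wild-type arrays.

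The response to the vector, meaning transfected over mock on the log2 scale within a genotype, ran differently in the 3 genotypes. In Per2m/m cells 4 genes were at least 2-fold higher and 2 lower, beside 17.8% and 17.7% of all genes. In Clk/Clk cells 2 genes were higher and 0 lower, beside 2.84% and 3.26% of all genes. In wild-type cells 0 were higher and 2 lower, beside 6.8% and 10.6% of all genes. The median response of the 10 genes was 0.23 in Per2m/m cells, 0.43 in Clk/Clk cells and -0.41 in wild-type cells, against 0.12, 0.02 and -0.01 over all genes. Under other processing these medians ranged over 0.13 to 0.98, 0.22 to 0.49 and -0.48 to -0.10 for the same 3 genotypes, the highest Per2m/m value being that over the 8 genes well above background on every array.

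**Figure D1:**
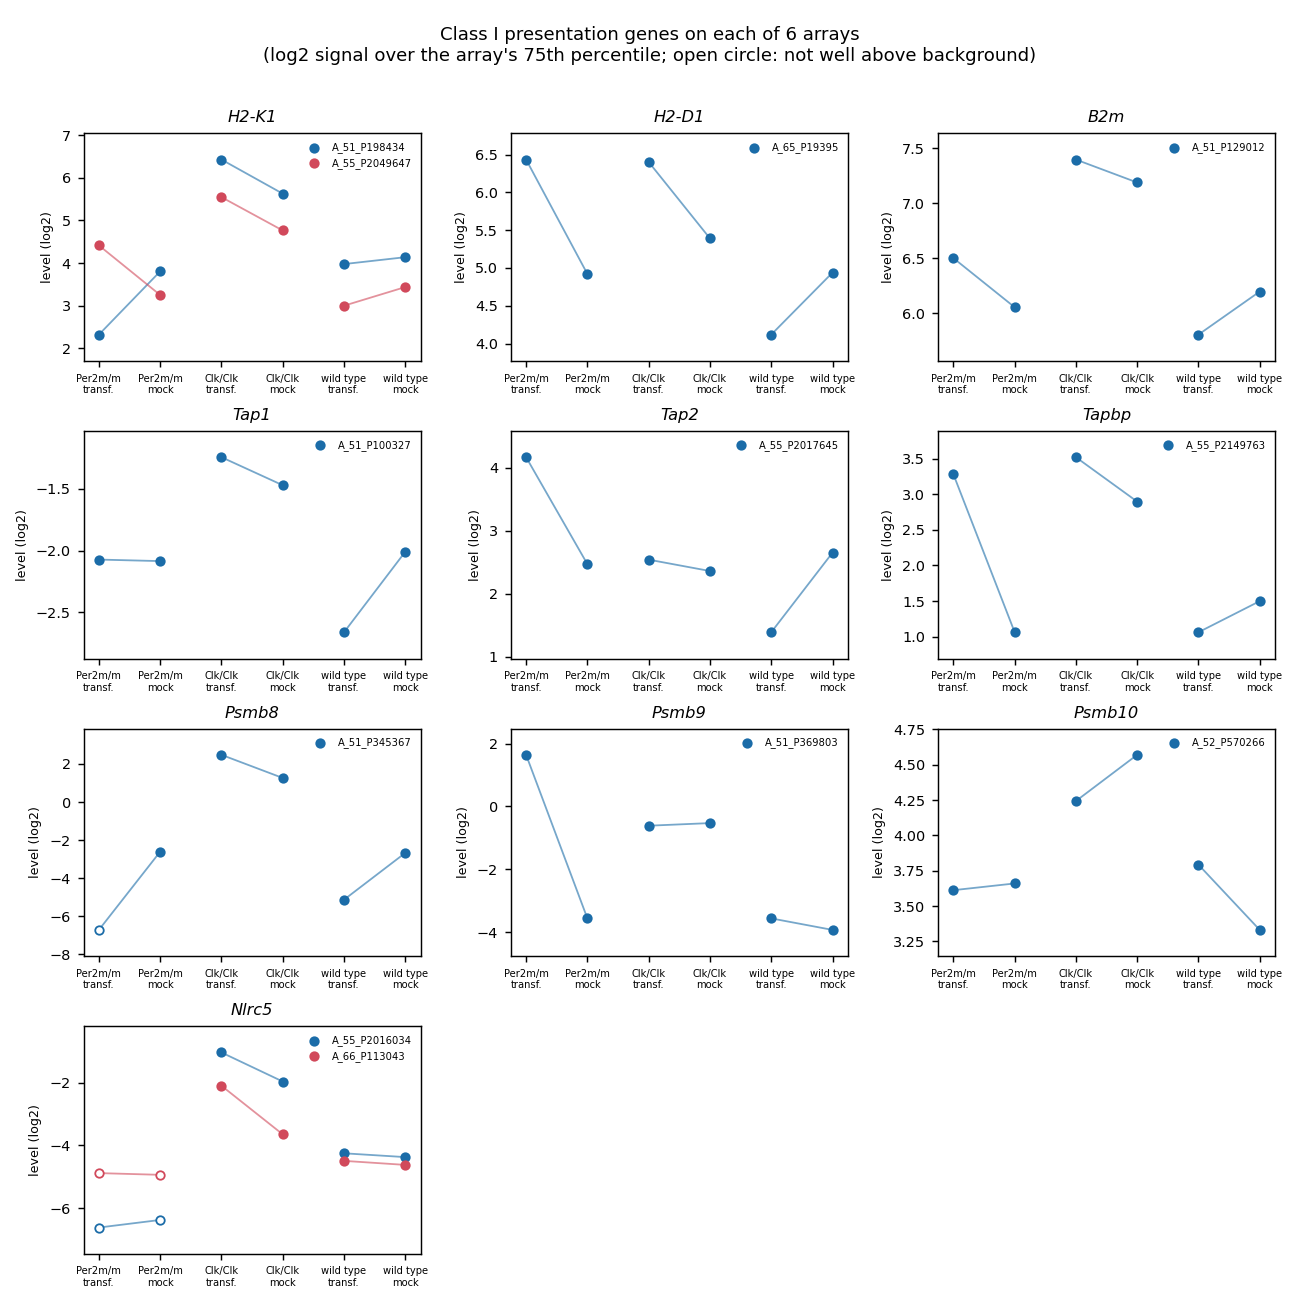
Level of each class I presentation gene on each of the 6 arrays (log2 signal over the array's 75th percentile), one panel per gene, with a colour per probe, transfected and mock cultures of a genotype joined by a line, and open circles where the probe was not well above background. H2-K1's probes cross in Per2m/m cells, and Psmb9 is high in transfected Per2m/m cells and intermediate in both Clk/Clk cultures.

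The heavy chains and B2m form the class I molecule itself. H2-D1 had a level of 6.43 in transfected and 4.92 in mock Per2m/m cells, 6.40 in transfected and 5.39 in mock Clk/Clk cells, and 4.12 in transfected and 4.94 in mock wild-type cells. The transfected Per2m/m and Clk/Clk arrays were the highest and the transfected wild-type array the lowest. The log2 response was 1.51 in Per2m/m cells, 1.01 in Clk/Clk cells and -0.82 in wild-type cells. B2m, the light chain shared by all class I molecules, had a level of 6.50 in transfected and 6.06 in mock Per2m/m cells, 7.40 and 7.19 in transfected and mock Clk/Clk cells, and 5.81 and 6.20 in transfected and mock wild-type cells. Both Clk/Clk arrays were above the other 4, by 1.59 over wild type in transfected cells and by 0.99 in mock cells. Responses of B2m were below 2-fold in every genotype, at 0.45 in Per2m/m cells, 0.21 in Clk/Clk cells and -0.39 in wild-type cells. In unscaled processed signal, B2m gave 35457 units in transfected and 36039 in mock wild-type cells, beside 75th percentiles of 634 and 491 units. It gave 63486 and 55406 units in transfected and mock Clk/Clk cells. Whether ratios are compressed at such bright signal was not tested.

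H2-K1, the other classical heavy chain measured, has 2 probes, and they differed in Per2m/m cells. The brighter probe, A_51_P198434 with 10 spots, had a level of 2.32 in transfected and 3.80 in mock Per2m/m cells, 6.43 and 5.63 in transfected and mock Clk/Clk cells, and 3.98 and 4.14 in transfected and mock wild-type cells. The other probe, A_55_P2049647 with 1 spot, had 4.41 in transfected and 3.25 in mock Per2m/m cells, 5.55 and 4.76 in transfected and mock Clk/Clk cells, and 3.00 and 3.44 in transfected and mock wild-type cells. Both probes put Clk/Clk above wild type, by 2.46 and 2.55 in transfected cells and by 1.49 and 1.33 in mock cells. In Per2m/m cells the response was -1.49 at the first probe and 1.17 at the second, so the direction for H2-K1 there is not settled by these probes. The files place the first probe at base 1488 of the transcript and the second at base 1021. Among 55 other probes of H2 genes, the nearest in sequence had 26 of 60 bases identical for the first probe and 39 of 60, a probe of H2-T23, for the second, and 27 of 60 for the H2-D1 probe. Read by its second probe, H2-K1 counts as higher, and the transfected Per2m/m counts become 5 higher and 1 lower against mock, and 5 higher and 0 lower against wild type.

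**Figure D2:**
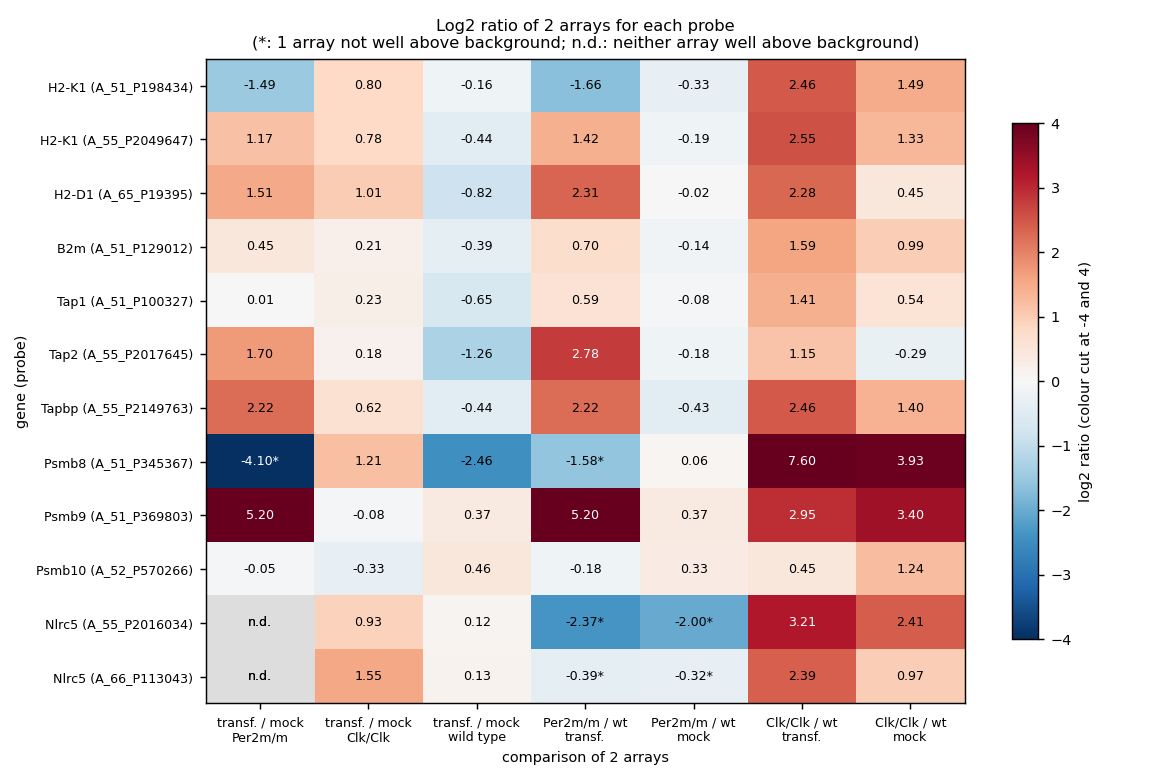
Log2 ratio of 2 arrays for 12 probes (rows) in 7 comparisons (columns), red where the first named group was higher and blue where it was lower. Asterisks mark ratios with 1 array not well above background, and grey cells those with neither. In the columns of Clk/Clk over wild type all ratios are above 0 except that of Tap2 in mock cells, and the H2-K1 rows have opposite signs in transfected Per2m/m cells.

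The immunoproteasome subunits held both the highest and the lowest ratios of the set. Psmb9 replaces the constitutive subunit Psmb6, and its level was 1.64 in transfected and -3.56 in mock Per2m/m cells, -0.61 and -0.53 in transfected and mock Clk/Clk cells, and -3.56 and -3.93 in transfected and mock wild-type cells. The transfected Per2m/m array was the highest, the Clk/Clk arrays came next, and the other 3 arrays were lowest. Transfected Per2m/m cells were 36.8-fold above mock Per2m/m cells, while the log2 response was -0.08 in Clk/Clk cells and 0.37 in wild-type cells. Clk/Clk cells were 7.72-fold above wild type in transfected cells and 10.5-fold in mock cells. These values rest on 1 probe with 1 spot per array, since the other Psmb9 probe, A_55_P2038983, was not well above background on any array.

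Psmb8, which replaces Psmb5 and lies between Tap1 and Tap2, ran the other way in Per2m/m cells. Its level was -2.61 in mock Per2m/m cells and not well above background in transfected Per2m/m cells. It was 2.48 in transfected and 1.26 in mock Clk/Clk cells, and -5.13 in transfected and -2.67 in mock wild-type cells. The Clk/Clk arrays were far above the rest, and in the other genotypes the transfected array was the dimmer one. The transfected culture had an at least 3.95-fold lower level than mock in Per2m/m, a 5.49-fold lower level in wild type and a 2.32-fold higher level in Clk/Clk. Clk/Clk cells were 194-fold above wild type in transfected cells and 15.3-fold in mock cells. The transfected wild-type level was close to -5.47, the lowest level well above background on that array, so ratios that use it rest on a dim value. In unscaled processed signal, Psmb8 gave 2098 units on the transfected Clk/Clk array and 18.1 units on the transfected wild-type array. The 75th percentiles of these arrays were 377 and 634 units. For Per2m/m against wild type in transfected cells no fold is given, since the wild-type level lay below the bound.

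Psmb10, which replaces Psmb7, varied least. It had a level of 3.61 in transfected and 3.66 in mock Per2m/m cells, 4.24 and 4.57 in transfected and mock Clk/Clk cells, and 3.79 and 3.33 in transfected and mock wild-type cells. It was 2-fold or more apart only in mock cells, where Clk/Clk was above wild type by 1.24 on the log2 scale, against 0.45 in transfected cells. Its responses were -0.05 in Per2m/m cells, -0.33 in Clk/Clk cells and 0.46 in wild-type cells.

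The constitutive counterparts did not follow the immunoproteasome subunits. Of Psmb5, Psmb6 and Psmb7, 0 of 3 differed 2-fold in any of the 7 comparisons. Psmb5 had 7.75 in transfected and 7.64 in mock Per2m/m cells, 7.33 and 7.18 in transfected and mock Clk/Clk cells, and 7.70 and 7.67 in transfected and mock wild-type cells. Psmb6 spanned 6.15 to 6.89 and Psmb7 3.45 to 4.26 over the 6 arrays. In transfected Clk/Clk cells the median log2 ratio of the 3 to wild type was -0.74, against -0.09 over all genes. Scaled to array medians in place of the 75th percentile it was -1.38, with 3 of 3 then at least 2-fold lower. That scaling moved the median of all genes in this comparison to -0.74, and shares of all genes under it are not given here. Of 6 genes for proteasome activators and assembly, Psme1 and Psme2 were 2-fold higher in Clk/Clk than in wild-type cells in both states. They encode the subunits of the interferon-inducible PA28 activator. In transfected cells 1 of 6 was lower, beside 9.03% of all genes. Of all genes 14.3% were higher in transfected and 10.8% in mock Clk/Clk cells. Psme1 had 4.06 in transfected and 2.76 in mock Per2m/m cells, 3.94 and 4.08 in transfected and mock Clk/Clk cells, and 2.89 and 2.63 in transfected and mock wild-type cells. Psme2, named after its values were seen, was above wild type by 1.25 in transfected and 1.53 in mock Clk/Clk cells. Within Per2m/m, Psme1 responded by 1.30 and Psme3, a nuclear activator subunit, by 1.48. Pomp, the chaperone that assembles proteasomes, had a level of 3.14 in transfected and 5.23 in mock Per2m/m cells, against 4.99 to 5.20 on the other 4 arrays. Psmg1, another assembly chaperone, responded by 0.87 in wild-type cells.

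**Figure D3:**
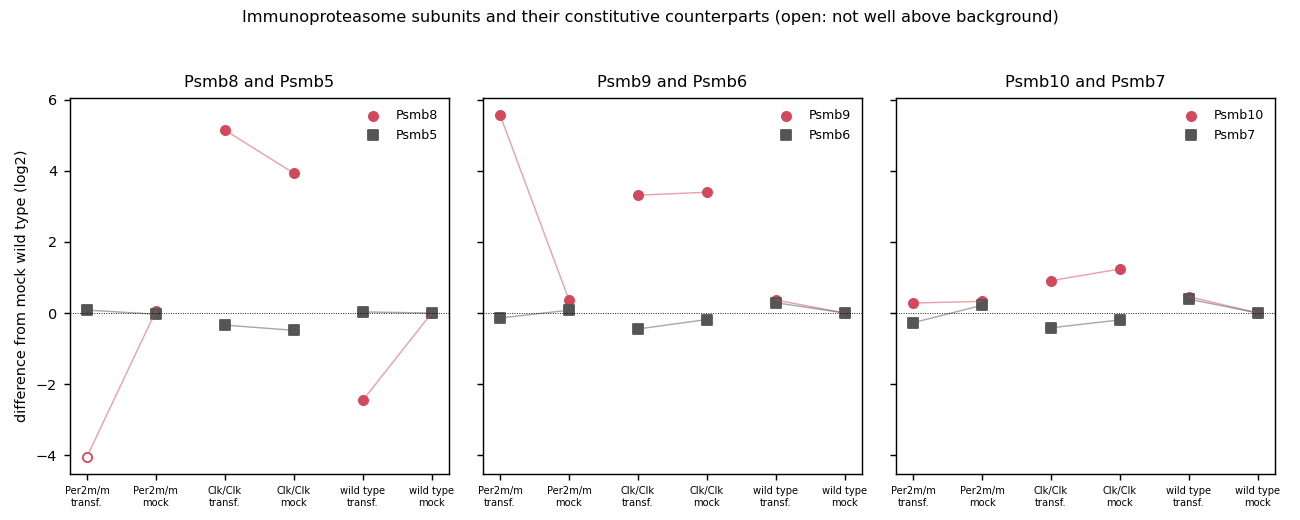
Difference of each array from the mock wild-type array (log2) for the immunoproteasome subunits Psmb8, Psmb9 and Psmb10 (red circles) and the constitutive subunits Psmb5, Psmb6 and Psmb7 that they replace (grey squares), with open symbols where the probe was not well above background. Psmb8 and Psmb9 move over several log2 units and in opposite directions in transfected Per2m/m cells, while the grey squares stay near 0.

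Peptide transport and loading genes differed less. Tap1 had a level of -2.07 in transfected and -2.08 in mock Per2m/m cells, -1.25 and -1.47 in transfected and mock Clk/Clk cells, and -2.66 and -2.01 in transfected and mock wild-type cells. It was 2-fold apart only between transfected Clk/Clk and transfected wild-type cells, by 1.41. Its 10 spots per array had an SD of 0.07 to 0.14. Tap2, its partner subunit, had 4.17 in transfected and 2.47 in mock Per2m/m cells, 2.54 and 2.36 in transfected and mock Clk/Clk cells, and 1.39 and 2.65 in transfected and mock wild-type cells. The 3 mock arrays lay within 0.29 of the mock wild-type array, and the transfected arrays of Per2m/m and wild type lay on either side of them. Transfection went with a Tap2 level 3.25-fold higher in Per2m/m cells and 2.40-fold lower in wild-type cells, and the log2 ratio of Clk/Clk to wild type was 1.15 in transfected cells and -0.29 in mock cells.

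Tapbp, which encodes tapasin, had a level of 3.28 in transfected and 1.06 in mock Per2m/m cells, 3.52 and 2.90 in transfected and mock Clk/Clk cells, and 1.06 and 1.50 in transfected and mock wild-type cells. Transfected Per2m/m cells joined both Clk/Clk arrays above the other 3 arrays. The response was 2.22 in Per2m/m cells, 0.62 in Clk/Clk cells and -0.44 in wild-type cells. Among 10 other genes for loading and trimming, 2 were higher and 2 lower in transfected than in mock Per2m/m cells. These counts were close to the shares of 17.8% and 17.7% over all genes. In Clk/Clk against wild-type cells 1 was higher and 1 lower in both states. The shares of all genes were 14.3% and 9.03% in transfected cells, and 10.8% and 8.59% in mock cells. Scaled to array medians, 1 was higher and 5 lower in transfected Clk/Clk cells, where the median of all genes was then -0.74. Erap1, an aminopeptidase that trims peptides in the endoplasmic reticulum, was at least 4.79-fold higher in transfected than in mock Per2m/m cells. Tapbpl, a tapasin relative, responded by 2.06 there, whereas the chaperone Calr and the oxidoreductase Pdia3 of the loading complex responded by -1.27 and -1.08.

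Nlrc5, the activator of class I promoters, was dim. Its probe A_55_P2016034 had a level of -1.04 in transfected and -1.97 in mock Clk/Clk cells, and -4.26 and -4.38 in transfected and mock wild-type cells, and it was not well above background on either Per2m/m array. Clk/Clk cells were 9.27-fold above wild type in transfected cells and 5.31-fold in mock cells. At the second probe, A_66_P113043, Clk/Clk was above wild type by 2.39 in transfected and 0.97 in mock cells, and it too was not well above background on the Per2m/m arrays. Per2m/m cells were at least 1.26-fold below wild type in transfected and at least 1.52-fold in mock cells. At the second probe these bounds were 1.07-fold and 1.25-fold. The Nlrc5 level in Per2m/m cells is thus known only as a bound. The part of Nlrc5 in the levels of the other genes was not tested.

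Other class I and class I-like genes largely followed the genotype difference. Of 17 such genes above the filter, 14 were higher in transfected and 8 in mock Clk/Clk cells than in wild-type cells, with 0 lower. The shares of all genes were 14.3% and 10.8% higher, and 9.03% and 8.59% lower. In transfected Per2m/m cells 10 were higher and 1 was lower than in mock Per2m/m cells, beside 17.8% and 17.7% of all genes. H2-T3, a nonclassical heavy chain, was at least 9.06-fold higher in transfected than in mock Per2m/m cells and well above background on that array only. H2-M3, which presents formylated peptides, had a response of 3.34 and Hfe, a regulator of iron uptake with a class I fold, of 3.21. Cd1d1, which presents lipids and not peptides, was the gene that was lower, at least 18.9-fold. The H2 genes are close relatives of one another, and signal of one on a probe of another was not tested beyond the sequence comparison above.

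The regulators of class I transcription were a mixed list. Of 19, in Clk/Clk against wild-type cells 4 were higher and 2 lower in transfected cells (beside 14.3% and 9.03% of all genes), and 7 were higher and 0 lower in mock cells (beside 10.8% and 8.59%). Their median log2 ratio in transfected cells was -0.11, against -0.09 over all genes. Scaled to array medians, 4 were higher and 6 lower there, with the median of all genes then at -0.74. Irf1 had a level of 3.37 in transfected and 1.16 in mock Per2m/m cells, 2.67 and 3.33 in transfected and mock Clk/Clk cells, and 2.03 and 1.14 in transfected and mock wild-type cells. Irf7 had 3.16 in transfected and 1.09 in mock Clk/Clk cells, and -4.93 and -3.67 in transfected and mock wild-type cells, and it was not well above background on either Per2m/m array. Irf1 was thus highest in transfected Per2m/m and mock Clk/Clk cells. In transfected Clk/Clk cells Irf1 was less than 2-fold above transfected wild-type cells. Irf7 was high in both Clk/Clk cultures. Stat2 and Irf9, named after their values were seen, were higher in Clk/Clk than in wild-type cells in both states. Stat2 had 4.80 in transfected and 4.75 in mock Clk/Clk cells, against 0.20 and 0.85 in wild-type cells. Irf9 had 3.39 and 3.25, against 0.36 and 0.92. These genes stood beside the 2 of 19 that were lower in transfected Clk/Clk cells. The Stat3 response was -1.62 in Per2m/m cells. Irf8, a factor of myeloid cells, was at least 4.95-fold lower in transfected than in mock Per2m/m cells.

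Of 10 interferon and interferon receptor genes 7 passed the filter. Between Clk/Clk and wild-type cells 0 of 7 differed 2-fold in either state. Of all genes 14.3% were higher and 9.03% lower in transfected Clk/Clk cells, and 10.8% and 8.59% in mock Clk/Clk cells. Scaled to array medians, 3 of 7 were lower in transfected Clk/Clk cells, where the median of all genes was then -0.74. Ifnb1, Ifna4 and Ifng, the ligands on this list, were not well above background on any array. Ifngr2 and Ifnar1, receptor chains, responded by -1.77 and -1.35 in Per2m/m cells, and Ifngr1 and the kinase Jak2 by -0.78 and -0.69. Class II presentation genes, the counterpart for CD4+ T cells, were 4 higher and 0 lower of 9 in transfected Clk/Clk cells against wild type, and 0 higher and 2 lower in mock cells. The 4 stood beside 14.3% of all genes higher and 9.03% lower in transfected Clk/Clk cells, and the 2 beside 10.8% higher and 8.59% lower in mock Clk/Clk cells. These counts and shares hold with the scaling used for levels. The 4 became 1 with arrays scaled to their medians, and 2 with quantile normalization, normexp or the authors' deposited table. Shares of all genes under these alternatives are not given here. Within Per2m/m, Cd74, the class II invariant chain, responded by 3.30, while the class II chains H2-Eb1 and H2-Ab1 were at least 10.0-fold and at least 4.37-fold lower after transfection. Ctss, a protease of class II processing, was at least 37.2-fold lower in transfected than in mock Per2m/m cells and at least 21.6-fold lower in wild-type cells.

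**Figure D4:**
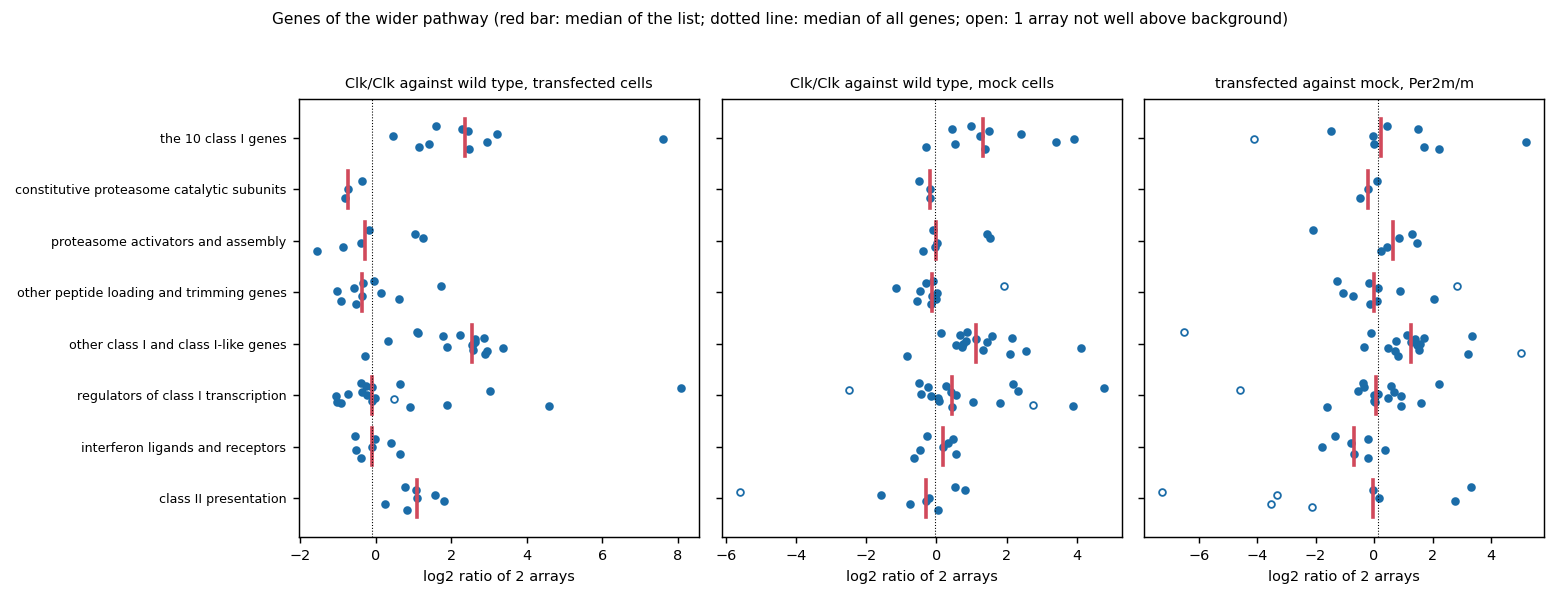
Log2 ratio of 2 arrays for each gene above the filter (points) in 8 gene lists, for Clk/Clk against wild type in transfected and mock cells and for transfected against mock Per2m/m cells, with open points where 1 array was not well above background, a red bar at the list's median and a dotted line at the median of all genes. The 10 class I genes and the other class I genes lie mostly right of the dotted line in the Clk/Clk panels, and the constitutive subunits do not.

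Markers of other cells moved with some of these results. All 10 fibroblast markers were well above background on every array, but their levels differed. Past 2-fold, 5 of 10 were lower in transfected than in mock Per2m/m cells, 1 in Clk/Clk cells and 3 in wild-type cells. Of all genes 17.7%, 3.26% and 10.6% were lower. In wild-type cells 1 marker was higher, beside 6.8% of all genes. Thy1 had a level of -0.65 in transfected and 7.11 in mock Per2m/m cells, Col3a1 of 1.57 in transfected and 5.16 in mock Per2m/m cells, and Dcn of -1.44 in transfected and 4.42 in mock wild-type cells. In Clk/Clk against wild-type cells 3 were higher and 3 lower in transfected cells, beside 14.3% and 9.03% of all genes. In mock cells 2 were higher and 2 lower, beside 10.8% and 8.59%. The part of these differences in the class I results was not tested. Of 15 macrophage markers, 8 were well above background in transfected and 15 in mock Per2m/m cells, 8 in each Clk/Clk culture, and 8 in transfected and 13 in mock wild-type cells. Their summed level, on a linear scale in multiples of the 75th percentile, was 18.3 in transfected and 56.7 in mock Per2m/m cells, 57.3 and 62.0 in transfected and mock Clk/Clk cells, and 23.9 and 47.4 in transfected and mock wild-type cells. Most of each sum was Itgam. The other 14 markers summed to 6.90 in transfected and 18.3 in mock Per2m/m cells, 6.98 and 7.29 in transfected and mock Clk/Clk cells, and 4.57 and 10.1 in transfected and mock wild-type cells. Tyrobp and Cx3cr1, 2 of the 15, were well above background on the arrays of mock Per2m/m and mock wild-type cells only. In Per2m/m cells 11 of the 15 were at least 2-fold lower after transfection and 0 higher, beside 17.7% and 17.8% of all genes. In wild-type cells 10 were lower and 2 higher, Mrc1 and Cd14, beside 10.6% and 6.8%. In Clk/Clk cells 0 were lower and 0 higher, beside 3.26% and 2.84% of all genes. Psmb8, Irf8 and Ctss were lower after transfection in Per2m/m and wild-type cells. The part of macrophages in these results was not tested. The Clk/Clk cultures were mixed in this list, since Tyrobp and Cx3cr1 were not well above background there, while Itgam had a level of 5.77 in mock Clk/Clk and 5.22 in mock wild-type cells, Cd14 of 1.46 and 0.15, and Aif1 of 0.08 and -0.91. The part of such cells in the Clk/Clk differences was not tested either. Epithelial markers had a summed level of 6.53 in transfected Per2m/m cells, against 0.39 to 1.02 on the other arrays. Krt14 made up 5.95 of it, and the other 6 markers summed to 0.58, within their range of 0.32 to 0.96 elsewhere. Cdh1 and Krt8 were well above background on that array only, and Krt18 on every array but that one. The part of these markers in the Psmb9, Tap2 and Tapbp levels was not tested. Lymphocyte and natural killer markers (4 of 9 above the filter) had a summed level of 4.63 in transfected and 3.83 in mock Per2m/m cells, 4.21 and 4.44 in transfected and mock Clk/Clk cells, and 3.38 and 3.30 in transfected and mock wild-type cells. Of 6 endothelial markers 5 passed the filter, with 2 to 4 well above background per array. In bulk RNA, fewer cells of a type and less RNA per cell cannot be told apart.

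An additive model of genotype and transfection over all 6 arrays, with 2 residual degrees of freedom, gave no significant gene. With limma and Benjamini-Hochberg adjustment over 17687 genes, 0 genes passed for Clk/Clk minus wild type (0.0% of all genes), 0 for Per2m/m minus wild type (0.0%) and 0 for transfected minus mock (0.0%). At an unadjusted p under 0.05, limma gave 1706 of the 17687 genes for Clk/Clk, among them 4 of the 10 class I genes. It gave 405 for Per2m/m, among them 1, and 819 for transfection, among them 0. Under alternatives the 4 became from 2, beside 2499 genes (median scaling), to 6, beside 1723 (quantile normalization). The 1 gene for Per2m/m was Nlrc5, not well above background on either Per2m/m array, and with normexp 0 of the 10 passed there. The Clk/Clk coefficient of limma was 5.77 ± 1.42 (standard error) for Psmb8 with an adjusted p of 0.424, 2.81 ± 0.43 for Nlrc5 with 0.292, 1.97 ± 0.66 for H2-K1 with 0.505 and 1.29 ± 0.37 for B2m with 0.483. For the other 6 genes it lay between 0.43 for Tap2 and 3.17 for Psmb9, and all 10 coefficients were above 0. The lowest adjusted p of limma among the 10 genes was 0.933 for Per2m/m and 0.695 for transfection. The p-values measure only the spread between these 6 samples, which may be technical, and the residual holds array noise and the genotypes' different responses together.

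The 10 genes did not form a single pattern over the arrays. Over the 8 genes well above background on every array, the mean level centred per gene was 0.58 in transfected and -0.62 in mock Per2m/m cells, 0.92 and 0.59 in transfected and mock Clk/Clk cells, and -0.92 and -0.56 in transfected and mock wild-type cells. Tapbp followed the mean of the other members most closely (Pearson r of 0.98 over 6 arrays), followed by B2m with 0.91 and H2-D1 with 0.88. H2-K1 by its brighter probe had r of 0.19 and Tap2 of 0.42. Among 8062 genes outside the lists that were well above background on all arrays and spanned at least 2-fold, those most like this mean were H2-M2 with r of 0.991, Gm11127 and D17H6S53E with 0.987 each, Lrrn4cl with 0.983 and Wdr92 with 0.982. H2-M2 had a level of 2.92 in transfected and 1.64 in mock Per2m/m cells, 3.68 and 2.92 in transfected and mock Clk/Clk cells, and 1.12 and 1.67 in transfected and mock wild-type cells. All arrays came from 1 slide, 6 points give many genes a high r, and these correlations are descriptions.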

How the data were processed

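Total RNA of 6 MEF cultures was measured on 6 one-colour Agilent mouse arrays, 1 per group, grouped by their titles. The deposited scanner files give a fluorescence intensity per spot. Per the file headers these were extracted with Feature Extraction 10.7.1.1, while the submitters' processing notes name 9.5.1.1, and which was used for which values was not resolved. The authors' deposited table also holds intensity. Its columns share a median of 23.8 and nearly the same sorted values, so it was taken as quantile-normalized, not centred by gene. The sources used here do not give its software.

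Outlier spots were left out and spots of a probe averaged. Levels are the log2 of processed signal over the 75th percentile of its array. Probes well above background on at least 1 array were kept, and the brightest kept probe on average stood for a gene. Names came from RefSeq (GRCm38.p6, also used for promoter windows) by accession for 27235 of 55681 probes, by symbol for 3581 and by synonym for 565, while 1817 kept the file's name and 22483 stayed unnamed. Probe coordinates are those of the files (mm9).

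The 10 genes, the gene lists, the motifs and the rule for named genes were chosen with earlier results of these data known. The text names all probes of the 10 genes, of each other list at most 4 genes with the largest response in a genotype, always Psmb5, Psmb6, Psmb7 and Irf1, and the 5 genes most like the 10. A further gene that the rule names is not reported here. Genes outside that rule are said to be so or stand as marker examples. Single ratios of 2 arrays have no test. limma 3.58.1 in R 4.3.3 (lmFit, eBayes, two-sided, adjusted p under 0.05) was fitted to all 17687 genes and tested on simulated data. Where a gene was not well above background on an array, its measured value entered this fit. All else was done in Python 3.11.15 (pandas 2.3.3, numpy 2.4.6) and drawn with matplotlib 3.10.9. Alternatives were scaling to the median, quantile normalization, the authors' table, normexp (offset 50), stricter and no filters on dim probes, the mean of a gene's probes, the files' names alone, limma-trend and leaving out the transfected Per2m/m array. Reading H2-K1 by its other probe was added after seeing the data.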

Additional observations from a re-analysis of the deposited data

Results flagged for a closer look

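Among responses, 3 differences between genotypes stood out because a gene was at least 2-fold higher after transfection in one genotype and at least 2-fold lower in another. Each rests on 1 array per culture, and none of the differences was tested. Tap2 responded by 1.70 (log2) in Per2m/m cells and by -1.26 in wild-type cells, a difference of 2.96. Psmb8 responded by 1.21 in Clk/Clk cells and by -2.46 in wild-type cells, a difference of 3.67. Psmb8 also differed between Clk/Clk and Per2m/m cells by 5.32 on measured values, which include a Per2m/m value not well above background. Both genes were read by 1 probe with 1 spot per array.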

How the results depend on the processing

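Counts of class I genes past 2-fold of both directions together kept within 1.5 times of their value under most alternatives. The exceptions were counts of 2 becoming 1. For the wild-type response the count was 1 with arrays scaled to their median and 1 with only probes well above background on all 6 arrays, a filter that leaves 8 of the 10 genes and removes Psmb8. For the Clk/Clk response it was 1 with that filter. Of the 2 genes lower in the Per2m/m response, 1 was counted with that filter, with normexp and with the mean of a gene's probes. Scaling to the median moved the median of all genes to -0.74 for Clk/Clk against wild type in transfected cells and to -0.37 in mock cells. The count of higher class I genes was then 6 and 5, against 9 and 6, with 0 lower. Shares of all genes past 2-fold under that scaling are not given here. The Clk/Clk coefficient of Tap2 turned to -0.056 under that scaling, against 0.43. No ratio of a gene counted as 2-fold changed sign under the alternatives run, apart from H2-K1 by its other probe. With limma 0 genes passed under any alternative, including limma-trend, and without the transfected Per2m/m array the lowest adjusted p of a class I gene for Clk/Clk was 0.134. No replicate numbers are given in the labels. The additive model takes genotype as the block for transfected against mock. Dim signals limit Psmb8 and Nlrc5 in Per2m/m cells, and 1 array per culture limits every ratio.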
